A study of Mus musculus with 20 samples.

Results

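The 10 genes Sst, Npy, Cck, Vip, Cort, Pvalb, Calb1, Calb2, Reln and Nos1, whose products mark the classes of inhibitory interneurons, were read from a table of 29671 genes by their symbols. Each symbol stood in 1 row, and all 10 genes had enough counts to be tested. RNA came from punches of both amygdalae, brain nuclei that take part in fear learning, of 20 male mice killed at postnatal day 84. The strain was C57B6, bred in house from Taconic stock, and the mice had no behavioural testing. The groups were the no-stress and the stress lineage of the F1 generation and the same lineages of the F2 generation, with 5 mice in each, where a stress lineage descends from mice put through chronic unpredictable stress. The labels name no transgene or drug in any group and no stress of the sampled mice themselves. The series title asks what such stress leaves in the amygdala transcriptome of descendants.

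Interneurons are local neurons that release GABA and hold the firing of nearby principal neurons in check. They are told apart by the neuropeptide they store and the calcium-binding protein they contain. Parvalbumin cells and many cholecystokinin cells inhibit the cell body of principal neurons, somatostatin cells inhibit their dendrites, and many cells with vasoactive intestinal peptide (VIP) inhibit other interneurons. Several of these genes are not restricted to interneurons: principal neurons of cortex and basolateral amygdala also make Cck, and medium spiny neurons of the striatum contain much calbindin. In punched tissue, a lower level of a gene can come from fewer cells of a type or from less RNA per cell, and these cannot be told apart here.

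Transcription of several peptide genes responds to cyclic AMP, and Sst and Vip are textbook targets of the transcription factor CREB, which binds the cyclic AMP response element. The promoters of the 4 peptide genes that held letters of this element are shown, since Sst among them was the steadiest and Cck the most variable gene in these mice. Each window is the 150 bases before the RefSeq start (GRCm38.p6) and lies at chr16:23890845-23890994 (minus strand) for Sst, chr9:121495695-121495844 (minus strand) for Cck, chr10:5639068-5639217 (plus strand) for Vip and chr4:149126764-149126913 (minus strand) for Cort. Capitals mark the cyclic AMP response element TGACGTCA or its core TGACG on either strand, and the core also lies inside the full element.
Sst: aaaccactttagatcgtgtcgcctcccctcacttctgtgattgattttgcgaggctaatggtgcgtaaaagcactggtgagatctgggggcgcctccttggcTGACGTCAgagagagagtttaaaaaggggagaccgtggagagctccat
Cck: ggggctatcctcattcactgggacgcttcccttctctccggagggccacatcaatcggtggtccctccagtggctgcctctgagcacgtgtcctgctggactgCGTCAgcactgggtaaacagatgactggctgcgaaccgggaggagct
Vip: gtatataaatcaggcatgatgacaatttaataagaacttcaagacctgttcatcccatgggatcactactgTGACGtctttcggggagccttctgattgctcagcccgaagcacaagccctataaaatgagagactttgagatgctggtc
Cort: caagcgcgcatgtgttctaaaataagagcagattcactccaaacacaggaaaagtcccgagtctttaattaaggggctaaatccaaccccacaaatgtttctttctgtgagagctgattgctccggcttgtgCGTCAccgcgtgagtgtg
The Ensembl gene model of Sst begins inside its window, upstream of the RefSeq start. The Sst window held the full palindrome at position −48, which 1.36% of 32851 RefSeq promoter windows of this length held. The cores stood at position −47 in Cck, −79 in Vip and −18 in Cort, against 13.3% of all windows with a core. A core stood at position −130 of the Nos1 window. That window, chr5:117866689-117866838 (plus strand), lies inside the Ensembl gene model of Nos1, whose start is at 117781032. The windows of Npy, Pvalb and Reln held neither motif, and no promoter sequence was at hand for Calb1 and Calb2. A match of letters is a description and not a measured binding site.

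Library totals ran from 13654890 to 13714805 counts. Totals this close point to equalised libraries, no label describes such a step, and the depth before it is unknown. Over the 16727 genes tested, the biological coefficient of variation within groups was 18.1%. All 13 markers of the central amygdala were tested, of which Gal had no count in at least 1 library, and they summed to 680 to 979 CPM (counts scaled to a common library size) per library, and 15 of 16 markers of pallial excitatory neurons, the principal neurons of cortex and basolateral amygdala, summed to 1577 to 4210 CPM. All 18 markers of striatal medium spiny neurons were also present, with no gene at 0 in any library, and their sum ran from 809 CPM in F2 stress replicate 14 to 10199 CPM in F2 stress replicate 15. Of 17 hypothalamic and thalamic markers, 7 were tested and had counts in every library, and the list summed to 97.8 to 218 CPM per library. Hcrt, Pmch, Oxt, Avp, Pomc and Agrp were among 9 with no count in at least 1 library, beside Fezf1, Otp and Sim1. Nkx2-4 was not in the table.

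Per base of transcript, Sst was the most abundant of the 10 transcripts and Cort the least abundant. CPM per kilobase of the longest protein-coding transcript averaged 154 for Sst, which encodes somatostatin, and 92.2 for Npy, which encodes neuropeptide Y (n = 20 libraries). Sst lay above Npy in all 20 libraries. Npy lay above Calb1 in all 20 and above Cck in 18. Calb1 and Cck followed with 47.9 and 47.5 CPM per kilobase, and Calb1 was the higher of the pair in 10 of 20 libraries, so their order could not be told. Calb2 (16.1), Nos1 (13.66), Pvalb (12.05) and Reln (10.03) formed a close series in which each gene exceeded the next in 11 to 13 of 20 libraries, Reln against Vip included. Vip averaged 7.87 CPM per kilobase and Cort 1.07, and Vip exceeded Cort in 20 of 20 libraries. The order was the same when all annotated exon bases of each gene were used as its length.

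**Figure D1:**
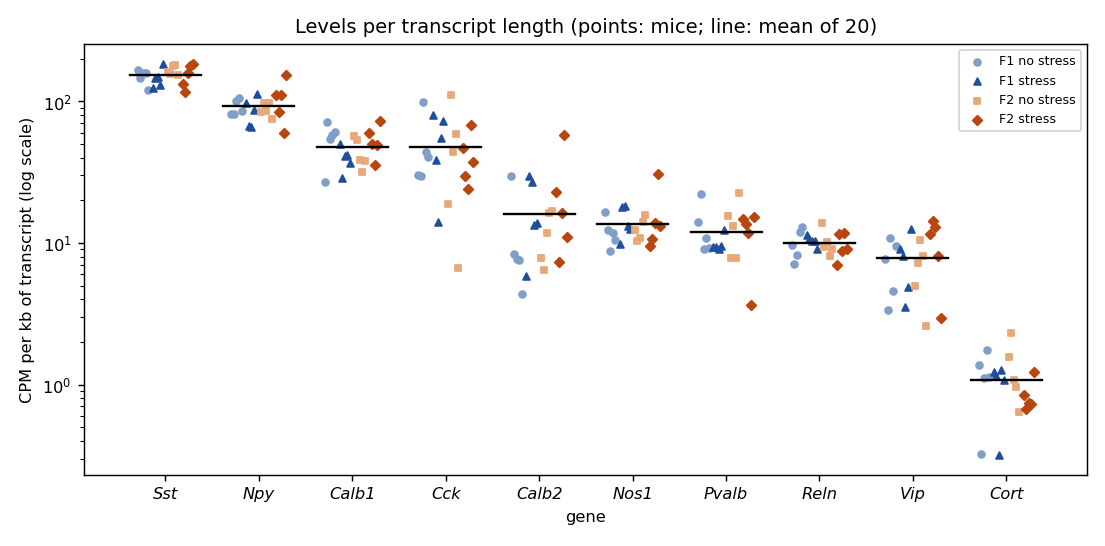
Level of each of the 10 genes in CPM per kilobase of transcript (log scale), with 1 point for each of 20 mice and a line at the mean. Sst stands above every other gene in all 20 libraries and Npy above all but Sst in 18 of them, and the points of Cck and Calb2 span the widest ranges.

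The genes differed widely in how far they varied among mice of a group. The standard deviation of log2 CPM within groups was 1.04 for Cck, 0.94 for Calb2 and 0.78 for Vip, which placed these 3 genes at percentiles 99.1, 98.6 and 97.3 of all tested genes. Pvalb (0.60, percentile 93.0) and Cort (0.58, percentile 92.1) came next. Sst had the steadiest level of the 10, with 0.21 against a median of 0.23 over all tested genes. Spread depends on level, and among genes of like mean level (within 0.5 on the log2 scale) the percentile was 71.1 for Sst, 58.1 for Cort, 96.8 for Pvalb and 98.7 to 99.6 for Vip, Calb2 and Cck. On this measure Nos1 was at 96.4, Calb1 at 93.9, Npy at 89.5 and Reln at 86.7. Across all 20 libraries the highest value was 16.7 times the lowest for Cck, 13.3 times for Calb2 and 1.58 times for Sst. For Cort, whose libraries held between 3 and 21 counts, counting error adds to this spread.

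None of the 10 genes was called in any of the 5 comparisons at an adjusted p below 0.05 (edgeR quasi-likelihood test, adjusted over all 16727 genes). In F1, stress against no-stress lineage called 0 of 10, against 0.00% of all tested genes. The same comparison in F2 called 0 of 10, against 7.92% of all genes. The difference between the F2 and F1 lineage effects called 0 of 10, against 2.52% of all genes. F2 against F1 called 0 of 10 in the no-stress lineage, against 2.0%, and 0 of 10 in the stress lineage, against 0.0120%. At these shares fewer than 1 of 10 genes is called on average, so the counts do not set the 10 genes apart from other genes. At an unadjusted p below 0.05 the number of the 10 genes was 0, 0, 1, 0 and 0 in these comparisons in turn, beside 6.16, 25.6, 21.2, 20.2 and 6.99% of all tested genes. limma-voom also called 0 of 10 in each, and DESeq2 called 0 of the 9 or 10 to which it gave an adjusted p. The smallest adjusted p of the 10 was 0.739 in F1 and 0.304 in F2. The median log2 fold change of the 10 genes was 0.01 in F1 and 0.08 in F2 and the median difference between generations 0.12, beside 0.0042, 0.0013 and −0.0052 over all tested genes, and 5, 5 and 6 of the 10 values were positive. The 2 no-stress groups and the 2 stress groups serve in more than 1 comparison, so the comparisons are not independent. Each p-value sets a group difference against the spread between these mice, and the labels do not say which mice shared a litter or a sire.

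**Figure D2:**
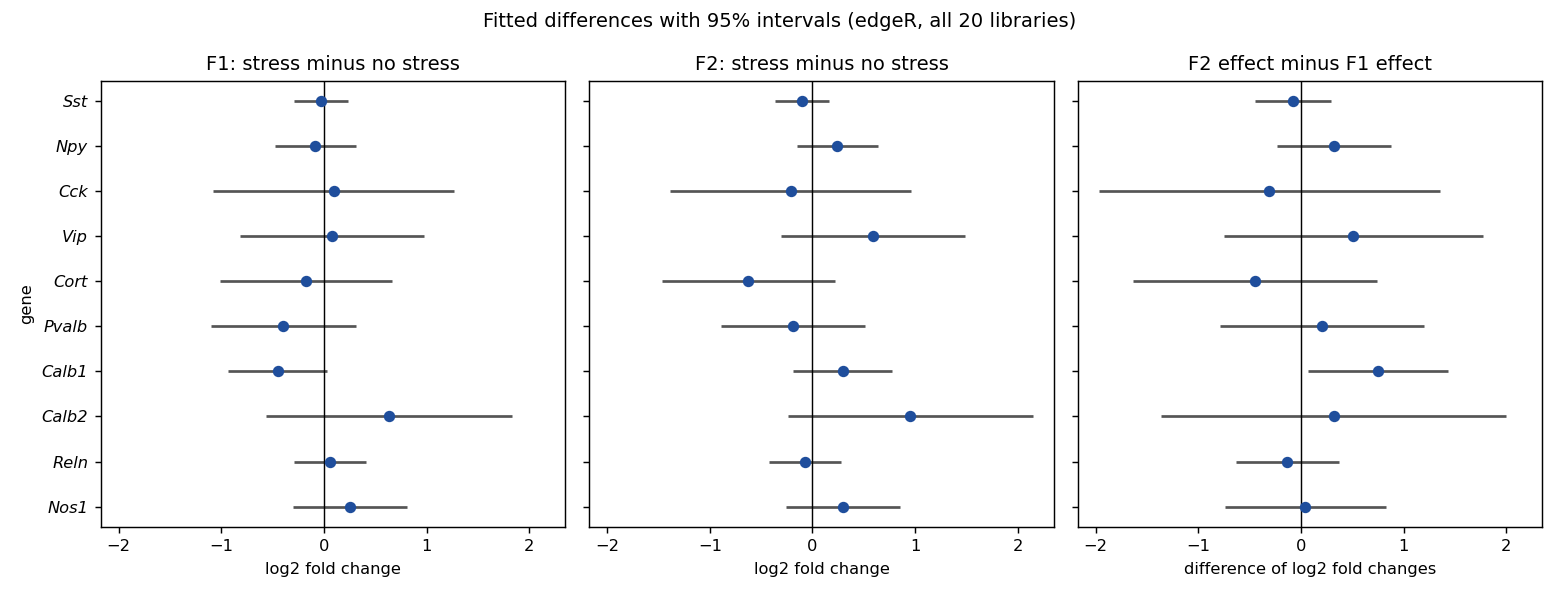
Fitted log2 fold changes of stress over no-stress lineage in F1 (left) and F2 (middle), and the F2 effect minus the F1 effect (right), for each of the 10 genes, with 95% intervals from a fit to all 20 libraries. All intervals include 0 except that of Calb1 in the right panel, which runs from 0.07 to 1.43.

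Sst (ENSMUSG00000004366, chr16:23889573-23890958, GENCODE vM21 gene model on GRCm38 here and for the genes below), whose peptide slows the release of hormones and transmitters, was the gene with the narrowest intervals. Its level was 89.1, 105, 108, 93.5 and 134 CPM in F1 stress replicates 1 to 5 and 120, 105, 114, 115 and 87.1 CPM in F1 no-stress replicates 6 to 10. In F2 it was 95.6, 84.6, 115, 129 and 133 CPM in stress replicates 11 to 15 and 116, 112, 129, 131 and 111 CPM in no-stress replicates 16 to 20. The groups overlapped in both generations, and the lowest and the highest value of all 20 libraries both lay in stress lineages. The log2 fold change of stress over no-stress was −0.03 ± 0.13 SE in F1 (95% interval −0.29 to 0.23) and −0.10 ± 0.13 in F2 (−0.36 to 0.16), and the F1 sign changed when library totals replaced TMM factors (0.0037). These intervals correspond to folds between 0.817 and 1.17 in F1 and between 0.777 and 1.12 in F2, so larger shifts of Sst RNA lie outside the 95% intervals of this fit. The F2 sign changed with an offset for GC content and transcript length (0.10), and the intervals do not take in such a change of processing.

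Npy (ENSMUSG00000029819, chr6:49822710-49829507), whose peptide is found with somatostatin in many of the same interneurons, averaged 51.6 ± 6.31 CPM in F1 no-stress, 48.7 ± 11.5 in F1 stress, 49.7 ± 5.40 in F2 no-stress and 58.8 ± 19.6 in F2 stress mice (mean ± SD, n = 5 each). F2 stress held both the lowest library of all, replicate 14 with 34.1 CPM, and the highest, replicate 15 with 86.5 CPM. These were also the libraries with the lowest and the highest sum of striatal markers. Npy had r = 0.60 with the striatal score over 20 libraries (permutation adjusted p = 0.0800) and r = 0.13 without these 2. Its log2 fold change was −0.08 ± 0.19 in F1 and 0.24 ± 0.19 in F2 (adjusted p = 0.916 and 0.444). With the striatal score, centred within groups, as a covariate the F2 value was 0.19, which does not adjust for differences between groups.

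Cck (ENSMUSG00000032532, chr9:121489824-121495694) encodes cholecystokinin, the peptide of one class of basket cells and of many principal neurons. It was at 64.2, 30.8, 11.2, 43.9 and 57.9 CPM in F1 stress replicates 1 to 5 and at 24.2, 23.8, 79.3, 35.02 and 32.6 CPM in F1 no-stress replicates 6 to 10. In F2 it was at 37.6, 23.6, 19.1, 54.6 and 29.98 CPM in stress replicates 11 to 15 and at 15.1, 89.1, 34.9, 47.0 and 5.34 CPM in no-stress replicates 16 to 20. The extremes of all 20 libraries both lay in F2 no-stress mice, replicate 20 at the bottom and replicate 17 at the top, and the groups overlapped throughout. The log2 fold change was 0.09 ± 0.56 in F1 (95% interval −1.08 to 1.27) and −0.21 ± 0.56 in F2 (−1.39 to 0.96). These intervals correspond to folds between 0.473 and 2.41 in F1 and between 0.381 and 1.95 in F2. With this spread, the data do not exclude changes of Cck within these bounds.

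Vip (ENSMUSG00000019772, chr10:5639218-5647617), which encodes the peptide of interneurons that target other interneurons, was at 13.8, 12.4, 5.36, 7.44 and 19.2 CPM in F1 stress and at 11.8, 5.17, 16.5, 7.005 and 14.6 CPM in F1 no-stress replicates. In F2 the values were 17.7, 22.1, 19.9, 12.5 and 4.53 CPM in stress replicates 11 to 15 and 7.57, 10.96, 16.02, 12.4 and 3.97 CPM in no-stress replicates 16 to 20. In F2, 3 of 5 stress mice exceeded every no-stress mouse, but stress replicate 15 was near the bottom of both groups. Its log2 fold change was 0.08 ± 0.43 in F1 and 0.59 ± 0.43 in F2 (95% interval −0.30 to 1.48, adjusted p = 0.407).

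Cort (ENSMUSG00000028971, chr4:149125034-149126763) encodes cortistatin, a relative of somatostatin that binds the same receptors, and its libraries ran from 0.214 to 1.56 CPM. Its log2 fold change in F2 was −0.62 ± 0.41 (95% interval −1.47 to 0.22, adjusted p = 0.347), with 0.884 ± 0.438 CPM in no-stress and 0.570 ± 0.152 CPM in stress mice (n = 5 each). The ranges overlapped, from 0.433 to 1.56 CPM and from 0.453 to 0.831 CPM. In F1 the value was −0.18 ± 0.40 (adjusted p = 0.916).

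**Figure D3:**
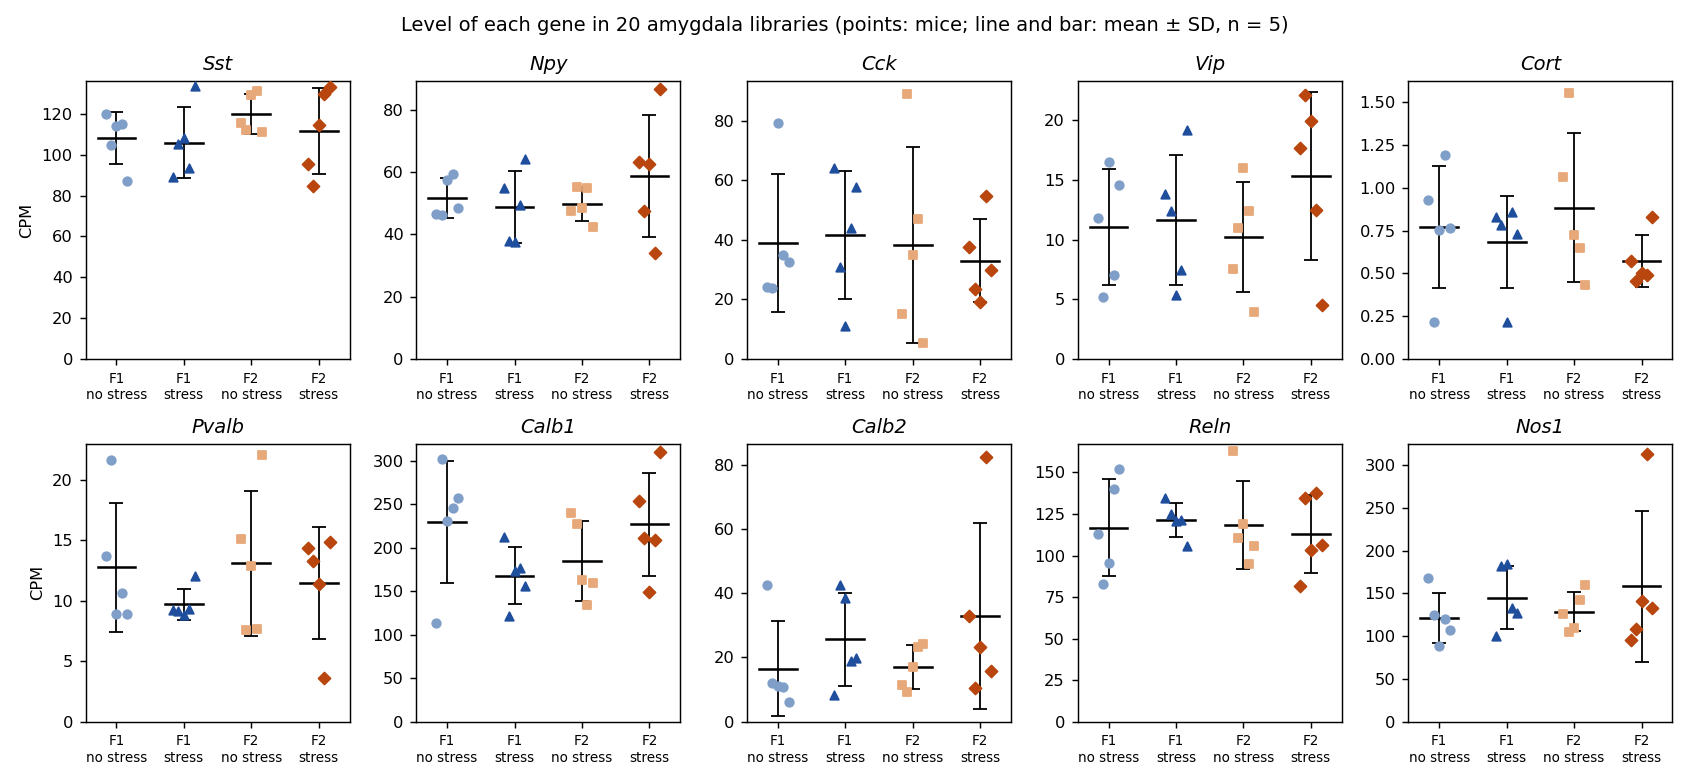
CPM of each of the 10 genes in 20 amygdala libraries, by group, with 1 point per mouse and the mean ± SD of 5 mice. Within both generations the points of stress and no-stress lineages overlap for every gene, and single high points stand out in Cck (F1 no-stress, 79.3), Calb2 (F1 no-stress, 42.5) and Nos1 (F2 stress, 313).

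Among the calcium-binding proteins, which buffer or sense calcium inside the cell, Calb1 came closest to a difference. Calb1 (ENSMUSG00000028222, chr4:15881264-15908064) encodes calbindin and was at 212, 122, 173, 177 and 155 CPM in F1 stress replicates 1 to 5 and at 113, 301, 231, 246 and 257 CPM in F1 no-stress replicates 6 to 10. In F2 it was at 254, 212, 149, 209 and 309 CPM in stress replicates 11 to 15 and at 240, 227, 163, 134 and 159 CPM in no-stress replicates 16 to 20. In F1, 4 of 5 no-stress mice lay above every stress mouse, and the remaining one, replicate 6, lay below them all, while in F2 the groups were intermixed. The log2 fold change was −0.45 ± 0.23 in F1 (95% interval −0.94 to 0.03, adjusted p = 0.739) and 0.30 ± 0.23 in F2 (−0.19 to 0.78, adjusted p = 0.442). The F2 effect minus the F1 effect was 0.75 ± 0.33 (0.07 to 1.43), with an unadjusted p of 0.0330 and an adjusted p of 0.192. Leaving out each library in turn gave values of this difference from 0.61 to 0.92 and adjusted p from 0.0529 (without F1 no-stress replicate 6) to 0.304. With the striatal score, centred within groups, as a covariate the difference was 0.76 (adjusted p = 0.0677). Such a covariate takes up spread within groups and cannot adjust for a difference in striatal markers between groups.

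The 18 striatal markers had the sign of Calb1 in F1 and in the difference between generations, but mostly not in F2. In F1 all 18 had a negative log2 fold change (median −0.85). In F2, where Calb1 was positive, 13 of 18 were negative (median −0.17). All 18 had a positive difference between generations (median 0.68), and 0 of 18 were called in any of the 3. Their sum was 2339 to 9654 CPM in F1 no-stress, 1705 to 5274 in F1 stress, 2371 to 9710 in F2 no-stress and 809 to 10199 in F2 stress mice. How much of the Calb1 values comes from striatal tissue in the punches was not tested, and the group-centred covariate above cannot show it.

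Calb2 (ENSMUSG00000003657, chr8:110137502-110168210), which encodes calretinin and marks many VIP interneurons, was at 8.31, 42.6, 38.6, 19.02 and 19.9 CPM in F1 stress replicates 1 to 5 and at 42.5, 12.03, 11.1, 10.8 and 6.19 CPM in F1 no-stress replicates 6 to 10. In F2 it was at 32.9, 10.5, 23.3, 82.5 and 15.7 CPM in stress replicates 11 to 15 and at 11.3, 9.26, 16.97, 23.3 and 24.2 CPM in no-stress replicates 16 to 20. Single libraries carried the group means, namely F1 no-stress replicate 6 and F2 stress replicate 14, and the groups overlapped. The log2 fold change was 0.63 ± 0.57 in F1 (95% interval −0.56 to 1.83, adjusted p = 0.777) and 0.96 ± 0.57 in F2 (−0.24 to 2.15, adjusted p = 0.304). Without F2 stress replicate 14 the F2 value was 0.28, and without F1 no-stress replicate 6 the F1 value was 1.36 (adjusted p = 0.771 and 0.386).

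Pvalb (ENSMUSG00000005716, chr15:78191114-78206400) encodes parvalbumin, the calcium buffer of fast-spiking basket cells. It was at 9.22, 9.17, 8.86, 9.30 and 12.02 CPM in F1 stress mice and at 13.7, 21.6, 8.90, 10.7 and 8.94 CPM in F1 no-stress mice. In F2 it was at 14.3, 13.3, 11.4, 3.59 and 14.9 CPM in stress and at 15.1, 7.63, 12.9, 7.71 and 22.1 CPM in no-stress mice. The F1 stress mice were closer together than the other groups, and F2 stress replicate 14 had the lowest value of all. Stress over no-stress gave a log2 fold change of −0.40 ± 0.34 in F1 and −0.19 ± 0.33 in F2 (adjusted p = 0.765 and 0.768).

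Reln (ENSMUSG00000042453, chr5:21884454-22344702) encodes reelin, a secreted matrix protein that guides neuron placement in development and modulates synapses in the adult. Nos1 (ENSMUSG00000029361, chr5:117781032-117958840) encodes the neuronal nitric oxide synthase. Reln averaged 117 ± 29.2 CPM in F1 no-stress, 121 ± 10.3 in F1 stress, 119 ± 26.5 in F2 no-stress and 113 ± 23.5 in F2 stress mice (n = 5 each). Its log2 fold change was 0.06 ± 0.17 in F1 (95% interval −0.29 to 0.41) and −0.07 ± 0.17 in F2 (−0.43 to 0.28). Nos1 was at 100, 182, 184, 133 and 127 CPM in F1 stress replicates 1 to 5 and at 167, 125, 88.5, 120 and 107 CPM in F1 no-stress replicates 6 to 10. In F2 it was at 95.8, 109, 141, 313 and 133 CPM in stress replicates 11 to 15 and at 125, 105, 110, 142 and 160 CPM in no-stress replicates 16 to 20. Apart from stress replicate 14, the F2 stress mice lay within or just below the range of the no-stress mice. For Nos1 the log2 fold change was 0.26 ± 0.27 in F1 and 0.30 ± 0.26 in F2 (adjusted p = 0.805 and 0.506), and the F2 value was −0.11 without stress replicate 14. In the annotation both genes overlap others, and since the strand setting of the counting is not given in the sources used here, reads in these overlaps may have been left out or shared.

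Across generations, the log2 difference of F2 from F1 ran from −0.31 (Calb1) to 0.19 (Cort) in the no-stress lineage and from −0.33 (Cck) to 0.43 (Calb1) in the stress lineage, where the smallest adjusted p was 0.727. In the no-stress lineage the smallest adjusted p was 0.468. The Calb1 values of the stress lineages, 168 ± 33.1 CPM in F1 and 227 ± 59.4 CPM in F2 (n = 5 each), overlapped between generations, and all 18 striatal markers had a positive F2 difference there (median 0.43).

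For some of the genes, the differences among mice went with the levels of regional markers in the punches. Each gene was set against the mean log2 CPM of the 18 striatal markers and of 15 pallial markers, after subtraction of group means, in 20 relations with permutation p-values adjusted over the 20. Cck followed the pallial score (Pearson r = 0.90, Spearman rho = 0.85, n = 20, permutation adjusted p = 0.0010 and 0.0012), and r was 0.75 without the 2 libraries farthest from the median, F2 no-stress replicate 20 and F1 stress replicate 3 (adjusted p = 0.0100). Vip did so as well (r = 0.76, rho = 0.74, permutation adjusted p = 0.0013 and 0.00252), with r = 0.68 without those libraries (adjusted p = 0.0205). The libraries lowest in Cck, F2 no-stress replicate 20 (5.34 CPM) and F1 stress replicate 3 (11.2 CPM), were the libraries with the lowest sums of pallial markers, 1644 and 1577 CPM.

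The striatal score went with calbindin and calretinin in opposite directions. Calb1 was higher in libraries with more striatal marker RNA (r = 0.68, rho = 0.82, permutation adjusted p = 0.0121 and 0.0012), and r was 0.86 without F2 stress replicates 14 and 15 (adjusted p = 0.0020, the smallest that 10000 permutations can give). Calb2 was lower in those libraries (r = −0.81, rho = −0.81, permutation adjusted p = 0.00167 and 0.0012), with r = −0.78 without the same libraries (adjusted p = 0.0100). F2 stress replicate 14, with the lowest striatal sum, had the highest Calb2 and Nos1 and the lowest Npy and Pvalb of all 20 libraries.

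**Figure D4:**
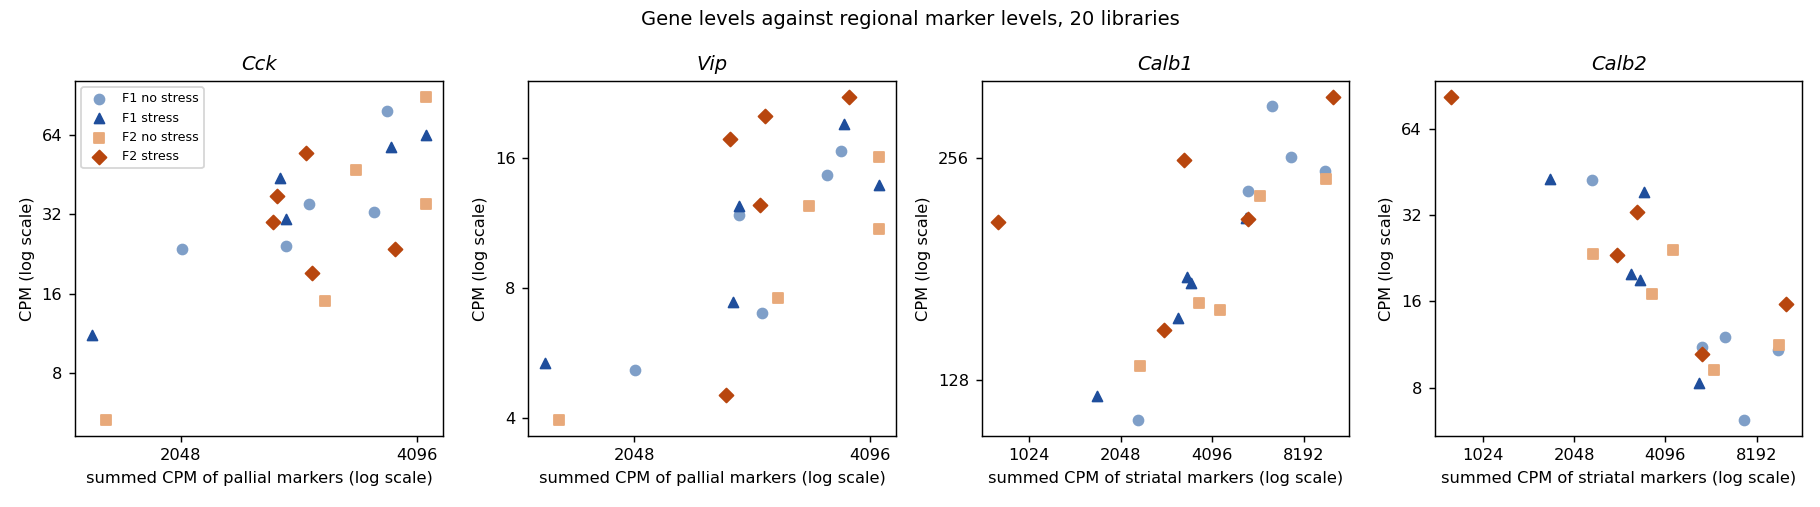
CPM of Cck and Vip against the summed CPM of pallial markers, and of Calb1 and Calb2 against that of striatal markers (both axes log scale), in 20 libraries with groups by symbol and without subtraction of group means. Cck, Vip and Calb1 are higher and Calb2 is lower where the regional markers on the x axis are higher.

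Of the 20 relations, 8 passed by Pearson r, 5 by Spearman rho and 4 without the 2 farthest libraries, and the relations of Cck, Vip, Calb1 and Calb2 above passed in all 3 ways. Nos1 against the pallial score passed by both coefficients (r = −0.48, rho = −0.70, permutation adjusted p = 0.0304 and 0.00252) but not without the 2 libraries (r = −0.42, adjusted p = 0.189). Nos1 against the striatal score (r = −0.68), Cort against the pallial score (r = 0.63) and Pvalb against the pallial score (r = −0.49) passed by Pearson r only. Without the 2 farthest libraries r was −0.52 for Nos1 and 0.29 for Cort (permutation adjusted p = 0.135 and 0.620), and the Cort relation rested on these libraries. For Pvalb r was −0.50 without them, as large as before, though the permutation adjusted p was 0.135. No relation of Sst, Npy or Reln passed (Pearson r between −0.33 and 0.60). Libraries share the dissection and the scaling, so these relations describe the punches and do not locate the RNA in a cell type.

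Among the 45 pairs of the 10 genes, 1 pair passed. Calb2 and Nos1 varied together (r = 0.79, rho = 0.72, n = 20, permutation adjusted p = 0.0203 and 0.0738), and r was 0.73 without F2 stress replicate 14 and F1 no-stress replicate 10 (adjusted p = 0.0990), so the call was lost while r moved little. With the striatal score held fixed, the partial r of the pair was 0.56 (permutation adjusted p = 0.120). Sst and Npy, which share many interneurons, had r = 0.20, and Cck and Vip had r = 0.54 (permutation adjusted p = 0.149). Of the 45 pairs, 21 had a positive r.

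**Figure D5:**
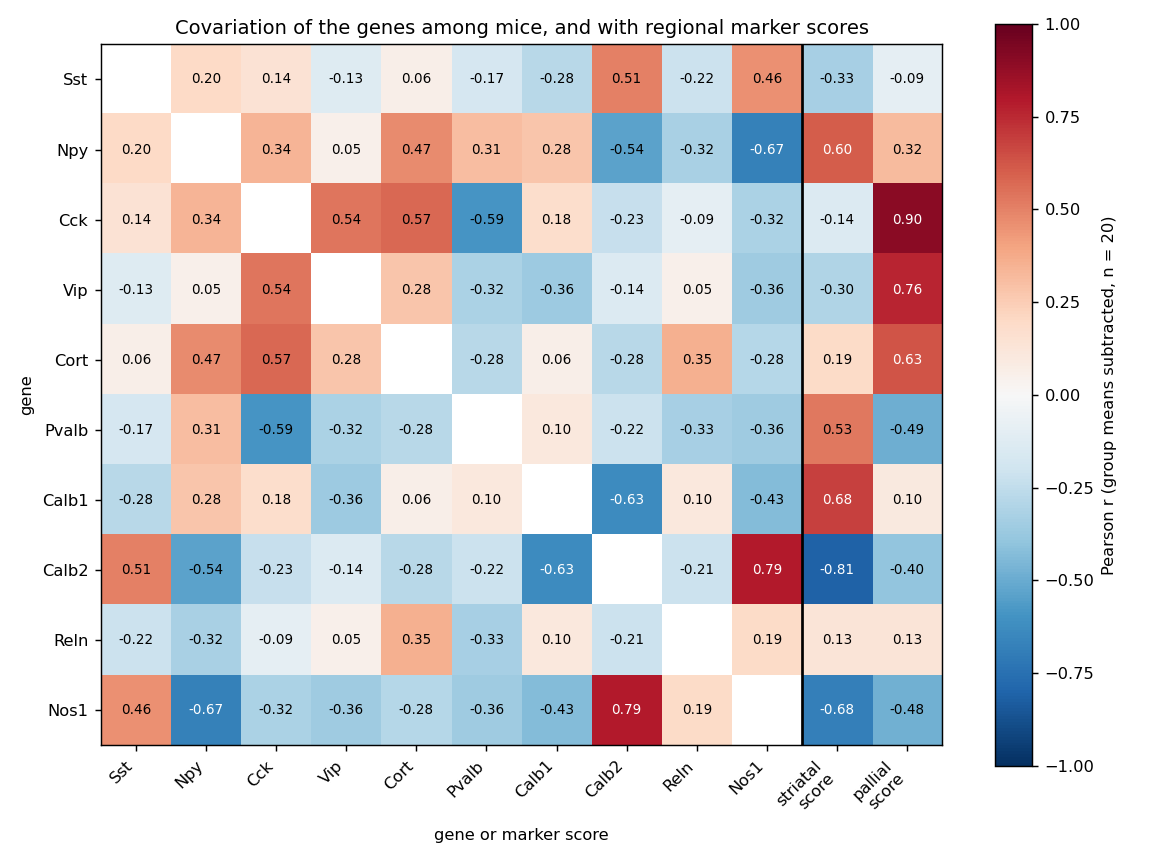
Pearson r between the 10 genes and with the striatal and pallial marker scores, over 20 libraries after subtraction of group means, with red for positive and blue for negative values. The strongest cells are Cck with the pallial score (0.90), Calb2 with the striatal score (−0.81) and Calb2 with Nos1 (0.79).

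The genes most like each of the 10 across mice were taken among 15570 genes with a mean of at least 1 CPM, by Pearson r of group-centred log2 CPM over 20 libraries. For Cck they were Stum (0.96), Wnt4 (0.95) and Nov (0.95), and for Vip they were Olfm1 (0.96), Fam81a (0.95) and Mfsd4a (0.95). For Calb2 they were Vav2 (0.96), Slc25a18 (0.95) and Rims3 (0.95), and for Nos1 they were Vwa5b2 (0.94), Kif26b (0.93) and Nbeal2 (0.92). Calb1 was most like Kcnip2 (0.91), Ndel1 (0.91) and Lpl (0.91), and Pvalb was most like Fgfr2 (0.89), Rnf13 (0.87) and Syt2 (0.86). The r values were lower for Sst, Npy, Reln and Cort. All r values here were picked as the largest among 15570 genes. Such selection alone gives high values, and how high was not tested. Sst was most like Endov (0.84), Gm11518 (0.84) and Gnai2 (0.83), and Npy was most like Fcrls (0.84), Myom3 (0.84) and Psmg4 (0.83). Reln was most like Cacna1c (0.80), Gtf3c1 (0.79) and D130043K22Rik (0.79), and Cort was most like Srcin1 (0.79) and Sgf29 (0.75).

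The receptors of the peptides did not pass the test either. Of 14 receptor genes for somatostatin, neuropeptide Y, cholecystokinin and VIP in the table, 12 were tested and 0 were called in any of the 5 comparisons. These comparisons called 0.00 to 7.92% of all tested genes, so the count does not set the receptors apart from other genes. The smallest p in F2 was that of Vipr1, a VIP receptor (log2 fold change −0.57 ± 0.20, adjusted p = 0.0800), and in F1 that of Npy5r (−0.33 ± 0.18, adjusted p = 0.739). Of 10 partners of reelin and nitric oxide, among them reelin receptors and the guanylyl cyclase that senses nitric oxide, 0 were called, against the same shares. In F2 the smallest p there belonged to Prkg1, a kinase activated by cyclic GMP (0.63 ± 0.23, adjusted p = 0.0887).

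Other interneuron genes gave 1 call. Of 22 further interneuron markers 0 were called in any comparison, against 0.00 to 7.92% of all tested genes. Erbb4 (0.26 ± 0.17, adjusted p = 0.342) was first by p in F2 and Tac1 (−0.73 ± 0.34, adjusted p = 0.739) in F1. Of 5 genes of GABA synthesis and transport 0 were called, against the same shares, with the vesicular transporter Slc32a1 first in F2 (−0.59 ± 0.22, adjusted p = 0.103). Of 19 transcription factors of interneurons, 1 was called lower in F2 stress mice and 0 in the other comparisons, against 7.92% of all genes called in F2. This was Npas1, a repressor of the basic helix-loop-helix class found in some interneurons. Npas1 was at 1.996, 1.21, 1.65, 2.04 and 1.89 CPM in F2 stress replicates 11 to 15 and at 3.63, 4.74, 3.19, 3.46 and 4.83 CPM in F2 no-stress replicates 16 to 20. The log2 fold change was −1.17 ± 0.35 (adjusted p = 0.0454). The F2 groups did not overlap, but Npas1 was named for its call in these same data, so this is no separate support. The share of all genes without overlap was not counted. In F1 the groups overlapped, with 2.88 ± 1.20 CPM in stress and 2.62 ± 1.75 CPM in no-stress mice (n = 5 each), and the difference between generations had an adjusted p of 0.131. The Npas1 call was kept in 5 of 10 other settings and, separately, in 8 of 20 fits that left out 1 library, with log2 fold changes from −1.24 to −1.06 in the latter and adjusted p up to 0.114. With an offset for GC content and transcript length it was −0.75 (adjusted p = 0.303).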

How the data were processed

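The deposited values are counts, whole numbers of reads per Ensembl gene and mouse. Per the submitters' processing notes, the authors aligned reads with STAR 2.5.3a to GRCm38, and per the labels the kit was a stranded one with poly-A selection. How reads were counted, against which annotation and with which strand setting, is not given in the sources used here.

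Rows of the 10 symbols were taken from the table, and tests were run on all genes that passed filterByExpr (16727) in 20 libraries. Genes were tested in edgeR 4.0.16 (R 4.3.3) by its quasi-likelihood F test, with TMM factors (0.956 to 1.042), robust dispersion and 1 mean per group. Adjustment was by Benjamini-Hochberg over all tested genes, and calls were made below 0.05. CPM use the TMM factors, and log2 CPM a prior count of 2. Levels per kilobase use the longest protein-coding transcript of GENCODE vM21 on GRCm38. Correlations used 100000 two-sided permutations within groups (10000 without the 2 farthest libraries), adjusted over 45 pairs or 20 score relations.

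Alternatives were DESeq2 1.42.0, limma-voom (limma 3.58.1), relative log expression factors, library totals, no low-count filter, 1 surrogate variable (sva 3.50.0), the striatal score as covariate, an offset for GC content and length (5 spline degrees of freedom, with GC values for 16692 tested genes), only the groups compared, and each library left out. A fit of 18 libraries, which drops F2 no-stress replicate 20 and F2 stress replicate 14, and the rank and left-out checks of the score relations, were chosen after seeing the data. The striatal score used as covariate had each group's mean subtracted, so it does not adjust for differences between groups. The fit was tested on simulated data. No 2 libraries were duplicates (chi-square per gene of at least 4.51).

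The members and lists were chosen with earlier results of these data known. All 10 genes were named. From the other lists, called genes (up to 4 per comparison) were named, or the gene with the smallest p. For likeness, the 3 genes with the highest r were named, except 1 that is not reported here. Promoter sequences for 8 of the 10 genes came from RefSeq (GRCm38.p6). Figures were drawn with Python 3.11.15.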

Additional observations from a re-analysis of the deposited data

Results flagged for a closer look

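In 5 of 40 combinations of gene and group, 1 mouse stood apart from the other 4 by a gap of more than 0.71 of the group's range. Chance gives about 1 in 20 such groups for normally distributed values. CPM need not be so distributed and the combinations share mice, so that rate may not hold here. Cck was at 79.3 CPM in F1 no-stress replicate 8, with the nearest mouse at 35.02 CPM. Calb2 was at 42.5 CPM in F1 no-stress replicate 6, with the nearest at 12.03 CPM. Nos1 was at 313 CPM in F2 stress replicate 14, with the nearest at 141 CPM. Pvalb was at 12.02 CPM in F1 stress replicate 5, with the nearest at 9.30 CPM. Cort was at 0.214 CPM in F1 stress replicate 3, which is 3 counts, with the nearest at 0.728 CPM. The 5 values lie in 5 different libraries.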

How the results depend on the processing

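None of the 10 genes was called in any comparison under any alternative run or with any 1 library left out. Of 488 values under other settings 39 changed sign, with adjusted p of at least 0.44 in each, and 449 kept their sign. With library totals these were Sst 0.0037 for the F1 lineage effect. With 1 surrogate variable these were Npy 0.12, Cort 0.053, Calb2 −0.091 and Nos1 −0.086 for the F1 lineage effect, Npy 0.035, Calb2 −0.077 and Nos1 −0.024 for F2 against F1 in the no-stress lineage. With the offset for GC content and length these were Reln −0.10 for the F1 lineage effect, Sst 0.10, Cck 0.052 and Reln 0.033 for the F2 lineage effect, Sst 0.14 and Reln 0.13 for the difference between generations, Sst −0.0032, Vip 0.033, Cort −0.053, Calb2 −0.016, Reln −0.085 and Nos1 −0.075 for F2 against F1 in the no-stress lineage, Reln 0.049 for F2 against F1 in the stress lineage. With limma-voom these were Cck 0.25 for the F2 lineage effect, Cck 0.23, Calb2 −0.066 and Nos1 −0.075 for the difference between generations, Pvalb −0.0032 for F2 against F1 in the no-stress lineage. With 18 libraries (F2 no-stress replicate 20 and F2 stress replicate 14 left out) these were Pvalb 0.31 and Nos1 −0.017 for the F2 lineage effect, Calb2 −0.20 and Nos1 −0.27 for the difference between generations, Cck 0.26, Vip 0.094, Pvalb −0.24, Calb2 −0.12 and Nos1 −0.0090 for F2 against F1 in the no-stress lineage, Calb2 −0.32 and Nos1 −0.28 for F2 against F1 in the stress lineage. With the striatal covariate these were Calb2 −0.082 and Nos1 −0.056 for the difference between generations. The cause was not tested for any of them.

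Of 1000 values with 1 library left out 61 changed sign. For the F1 lineage effect the ranges were Cck −0.12 to 0.53, Cort −0.42 to 0.052, Reln −0.051 to 0.17, Sst −0.13 to 0.026 and Vip −0.18 to 0.27. For the F2 lineage effect the ranges were Cck −0.49 to 0.37, Nos1 −0.11 to 0.43, Pvalb −0.33 to 0.083 and Reln −0.16 to 0.069. For the difference between generations the ranges were Calb2 −0.40 to 0.58, Cck −0.74 to 0.27, Nos1 −0.36 to 0.18, Pvalb −0.048 to 0.48, Reln −0.24 to 0.012 and Sst −0.14 to 0.025. For F2 against F1 in the no-stress lineage the ranges were Calb2 −0.17 to 0.76, Cck −0.61 to 0.41, Cort −0.11 to 0.40, Nos1 −0.014 to 0.22, Npy −0.11 to 0.00098, Pvalb −0.24 to 0.29, Reln −0.12 to 0.14 and Vip −0.34 to 0.094. For F2 against F1 in the stress lineage the ranges were Calb2 −0.32 to 0.62 and Nos1 −0.28 to 0.26.

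By Spearman rho, 0 pairs of genes passed. Without the 2 farthest libraries 1 pair passed, Npy with Cck (r = 0.69, permutation adjusted p = 0.0315), and with the striatal score held fixed 1 passed, Vip with Nos1 (partial r = −0.80, permutation adjusted p = 0.0117), so which pair passed depended on the setting. Of the score relations, 5 passed by Spearman rho and 4 without the 2 farthest libraries, against 8 by Pearson r. Among all genes, 1324 were called in F2, against 2028 by DESeq2, 737 with no low-count filter, 8 with the offset for GC content and length, 0 with only the groups compared and 241 to 2431 with 1 library left out. In F1, 0 genes were called (1030 at an unadjusted p below 0.05), against 2 by DESeq2, 0 by limma-voom and 89 with the striatal covariate. For the difference between generations the 421 calls became 1194 by DESeq2, 0 with the offset and 0 to 1501 with 1 library left out (0 in 11 of 20 fits). For F2 against F1, 335 became 992, 9 and 0 to 725 in the no-stress lineage, and 2 became 6, 4 and 0 to 10 in the stress lineage. DESeq2 gave no adjusted p for Cort in F2, in the difference and between generations in the no-stress lineage, so its counts there rest on 9 genes. With only the groups compared, Cort did not pass the filter in F2 or between generations in the stress lineage. No paired analysis was possible because each mouse had its own replicate number. Depth limits Cort, at 3 to 21 counts.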

Other observations

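The 10 genes together took 0.0634 to 0.0977% of the counts of a library. The highest share was that of F2 stress replicate 14, where Calb2 and Nos1 were highest, followed by F2 stress replicate 15 with 0.0834%, where Calb1 and Npy were highest. The lowest share was that of F2 no-stress replicate 20, where Cck and Vip were lowest.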
